A study of Sus scrofa with 27 samples.

Results

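The genes described here are markers of the neutrophils and monocytes that are recruited into injured tissue: the calgranulins S100A8, S100A9 and S100A12, the chemokine receptors CXCR2 and CXCR4, the triggering receptor TREM1, and the granule proteins LTF and MMP8. They were chosen by gene name from a table of 31908 pig genes. Of the 9 names in the set, 6 stood in the gene name column, and S100A9 and CXCR2 were found through the gene description, the NCBI gene number or the overlap with a RefSeq gene. No row was matched to FPR1, a receptor for formylated peptides, which was not analysed here. The 8 genes described each had at least 10 counts in at least 1 library and entered every comparison.

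RNA-seq was performed on biopsies of whole lung from Large-White pigs before ex vivo lung perfusion (EVLP; 0h, after cold ischemia) and after 6h and 12h of it, with all lungs taken from non-heart-beating donors. EVLP keeps a ventilated donor lung perfused outside the body, here with Steen solution that in both groups held methylprednisolone (a glucocorticoid), cefuroxime and heparin, and the circuit carries no blood cells other than those still in the lung. In the Gold Standard (GS) group, of 5 pigs (9, 17, 44, 55 and 77), part of the perfusate was exchanged at regular intervals, and in the Pediatric Dialysis (PD) group, of 4 pigs (2, 3, 4 and 5), a dialyzer with a pediatric membrane was placed on the circuit instead. The paper's drawing, which includes dialysis, places a leukocyte-depletion filter ahead of the pulmonary artery, in the main perfusion path. The dialysis circuit joins that path in parallel, and the paper describes the same EVLP protocol for both groups. Each pig gave 1 library per time, 27 in all, and a pig's 0h library is its own control. The lists of blood and lung genes used for comparison below are named where their counts are given.

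Neutrophils store calgranulins in the cytosol and proteases and lactoferrin in granules, and they enter the lung along gradients of CXC chemokines. S100A8 and S100A9 pair to form calprotectin, which binds metal ions and, once released, acts as a danger signal through TLR4, and S100A12 is a ligand of the receptor AGER. CXCR2 is the main neutrophil receptor for CXCL8 and related chemokines and is lost from activated cells, whereas CXCR4, the receptor of CXCL12, is carried by neutrophils, monocytes, lymphocytes and other cells and holds leukocytes in marrow and lung. In whole tissue, fewer cells of a type and less RNA per cell cannot be told apart, and none of these genes is carried by neutrophils alone.

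The 3 calgranulin genes lie close together on chromosome 4 of Sscrofa11.1, S100A8 at chr4:96209551-96210602 and S100A12 at chr4:96225693-96227137 on the plus strand and S100A9 at chr4:96236113-96239285 on the minus strand. CXCR2 (chr15:120218992-120231041, plus strand) and CXCR4 (chr15:15663494-15667233, plus strand) share chromosome 15. TREM1 lies at chr7:36510253-36531796, LTF at chr13:29413886-29445737 and MMP8 at chr9:33384028-33396947, all on the minus strand. The 250 bases before the outermost annotated start are printed for the 3 calgranulins, whose levels moved together across libraries, and for CXCR2, the marker with the smallest adjusted p at 12h in each group. The sequences were read from the RefSeq genome of the same build and run 5′ to 3′ on the strand of the gene, with capitals marking the motifs found:
S100A8 (chr4:96209301-96209550): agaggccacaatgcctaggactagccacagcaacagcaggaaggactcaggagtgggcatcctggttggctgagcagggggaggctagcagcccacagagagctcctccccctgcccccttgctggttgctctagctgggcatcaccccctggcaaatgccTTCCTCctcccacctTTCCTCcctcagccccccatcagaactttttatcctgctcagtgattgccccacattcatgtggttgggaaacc
S100A12 (chr4:96225441-96225690): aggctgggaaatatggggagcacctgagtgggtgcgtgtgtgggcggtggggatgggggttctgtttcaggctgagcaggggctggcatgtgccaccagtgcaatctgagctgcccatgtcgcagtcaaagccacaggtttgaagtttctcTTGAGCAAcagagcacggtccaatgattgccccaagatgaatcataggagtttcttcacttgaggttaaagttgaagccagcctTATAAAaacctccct
S100A9 (chr4:96239286-96239535): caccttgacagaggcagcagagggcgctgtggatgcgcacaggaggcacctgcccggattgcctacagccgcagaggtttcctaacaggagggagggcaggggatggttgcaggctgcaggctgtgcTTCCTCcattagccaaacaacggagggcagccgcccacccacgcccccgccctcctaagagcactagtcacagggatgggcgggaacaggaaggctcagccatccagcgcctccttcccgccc
CXCR2 (chr15:120218742-120218991): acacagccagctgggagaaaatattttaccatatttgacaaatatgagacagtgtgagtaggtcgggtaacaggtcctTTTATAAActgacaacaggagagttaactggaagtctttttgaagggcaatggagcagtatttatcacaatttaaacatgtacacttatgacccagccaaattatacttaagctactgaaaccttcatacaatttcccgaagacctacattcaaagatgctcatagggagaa

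The windows of all 8 genes were searched on both strands for the core letters of 5 motifs, counting positions back from -1, the base before the start. GAGGAA, a core of the myeloid factor PU.1, occurred on the opposite strand in the windows of S100A8 (-89 to -84 and -74 to -69) and S100A9 (-123 to -118) and on the strand of LTF, and 22.3% of 20273 such windows held it. TTGCNNAA, a core of the C/EBP factors of granulocytes, occurred on the opposite strand in the window of S100A12 (-99 to -92). It occurred on the strand of the gene in those of TREM1 (-27 to -20) and LTF (-52 to -45), and 9.31% of windows held it. TATAAA occurred in the windows of S100A12 (-15 to -10) and, overlapping on both strands, of CXCR2, and 10.8% of windows held it. An NF-kB core (GGG, any 2 bases, TTTCC), held by 1.46% of windows, and the glucocorticoid receptor element (G, any base, ACA, any 3 bases, TGT, any base, C), held by 0.227%, had no match in any of the 8. The windows of CXCR4 and MMP8 held no match to any of the 5. A match is a run of letters and not a shown binding site.

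Library totals ranged from 26335584 to 67522703 counts in GS and from 14650700 to 21820935 in PD, so that the groups differed in depth without overlap. Levels are given as CPM, a gene's count relative to the library size after TMM scaling, and 3 counts corresponded to 0.0411 to 0.104 CPM in GS and to 0.129 to 0.324 CPM in PD. PD pig 2 at 12h stood apart. It had the fewest counts, and in it the median of the shortest 10% of genes exceeded that of the longest 10% by 2.43 on the log2 scale, against -1.08 to 1.502 in the other 26 libraries, and values without it are given beside several PD results. Per kilobase of exon, the order of the median levels at 0h in GS was S100A12 (332 CPM per kb), S100A9 (90.7), CXCR4 (68.3), S100A8 (26.7), CXCR2 (7.45), TREM1 (3.69), LTF (0.567) and MMP8 (0.277). In PD at 0h, S100A12 (1505 CPM per kb), S100A8 (270), S100A9 (226) and CXCR4 (183) led, with S100A8 now among the first, and the per-library ranges of S100A8, S100A9 and CXCR4 overlapped.

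**Figure D1:**
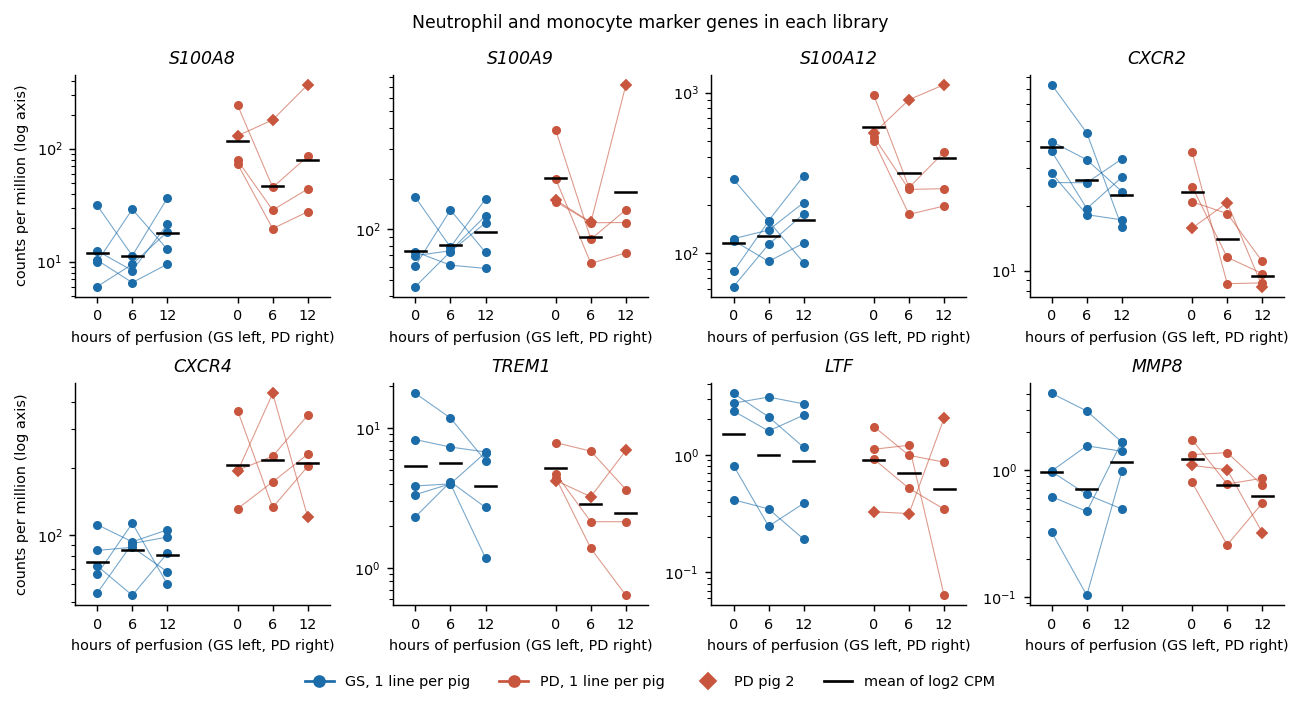
Level of each marker gene in each library, in CPM on a log axis, with 1 line per pig, GS in blue, PD in red and diamonds for PD pig 2. Black bars are means of log2 CPM. At 0h the PD points of S100A8, S100A12 and CXCR4 lie above all GS points, and in PD the CXCR2 points at 12h lie at 8.42 to 11.03 CPM.

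The first comparison asked how the markers changed in the perfused GS lung, with edgeR's quasi-likelihood test, the pig as a block and Benjamini-Hochberg adjustment over all genes tested. A call needed a change of 2-fold or more with an adjusted p below 0.05. None of the 8 markers was called at 6h, where 11.1% of 18594 genes were called, and none at 12h, where 15.7% were called. At an unadjusted p under 0.05 there were 0 of 8 markers at 6h and 2 of 8 at 12h (CXCR2 and LTF), beside 41.2% and 48.5% of all genes, and DESeq2 called no marker at either time. The median log2 fold change of the 8 was -0.03 at 6h and 0.19 at 12h, beside -0.05 and -0.08 over all genes.

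CXCR2 was the marker with the smallest adjusted p in GS. It was 25.7, 28.5, 73.6, 36.0 and 40.0 CPM at 0h in pigs 9, 17, 44, 55 and 77, 25.7, 18.2, 43.8, 19.5 and 32.9 CPM at 6h, and 33.2, 17.2, 15.9, 27.3 and 23.4 CPM at 12h. Pigs 17, 44, 55 and 77 were lower at both times, while pig 9 stayed at the same level at 6h and was higher at 12h, and the ranges overlapped. The log2 fold change was -0.55 ± 0.27 (SE) at 6h (adjusted p = 0.134) and -0.74 ± 0.27 at 12h (adjusted p = 0.0465), which passed the threshold for p and not that for fold. Without pig 44, which had the steepest loss, it was -0.41 (adjusted p = 0.161), and the p passed the threshold in 2 of 11 other settings, DESeq2 and the fit without pig 9 (adjusted p from 0.0146 to 0.161 over those settings).

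The calgranulins varied together in GS, but in a direction that differed between pigs. S100A8 was 31.4, 9.96, 12.5, 6.01 and 10.3 CPM at 0h in pigs 9, 17, 44, 55 and 77, 11.3, 29.04, 8.33, 9.48 and 6.52 CPM at 6h, and 36.6, 12.8, 21.4, 18.4 and 9.50 CPM at 12h. Pig 9 was high at 0h and 12h and pig 17 at 6h. The log2 fold change at 12h was 0.52 ± 0.38 for S100A8, 0.34 ± 0.27 for S100A9 and 0.44 ± 0.27 for S100A12, with adjusted p of 0.287, 0.333 and 0.212. S100A9 ranged from 45.8 to 155 CPM at 0h and from 58.6 to 151.5 CPM at 12h, and S100A12 from 62.1 to 288 and from 87.4 to 304 CPM, so that the times overlapped almost fully.

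CXCR4 overlapped across the times in GS, with 54.7 to 111 CPM at 0h, 53.4 to 113 CPM at 6h and 60.0 to 105.5 CPM at 12h and log2 fold changes of 0.17 ± 0.20 and 0.06 ± 0.20. TREM1, which amplifies the inflammatory response of neutrophils and monocytes, ranged from 2.31 to 17.6 CPM at 0h and from 1.17 to 6.72 CPM at 12h (log2 fold change -0.45 ± 0.35, adjusted p = 0.326). LTF, the iron-binding lactoferrin of secondary granules, was low, at 0.414, 0.809, 3.33, 2.36 and 2.75 CPM at 0h and 0.191, 0.386, 1.16, 2.18 and 2.71 CPM at 12h in the same order of pigs. It was lower at 12h in all 5 pigs, with a log2 fold change of -0.75 ± 0.30 (adjusted p = 0.0646). Pigs 9 and 17 lay below the other 3 pigs at every time, and they also had the lower library totals of the group, of at most 41802541 counts against at least 51708598; the part of depth in this was not tested. MMP8, the neutrophil collagenase, was at 0.326 to 4.03 CPM at 0h and 0.496 to 1.69 CPM at 12h, with fold changes of both signs among pigs.

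The second comparison asked the same of the PD lung. None of the 8 markers was called at 6h or 12h, where 0.142% and 5.98% of 15545 genes were called, and 7 of the 8 log2 fold changes were below 0 at each time. At an unadjusted p under 0.05 there were 3 markers at 6h (the 3 calgranulins) and 1 at 12h (CXCR2), beside 9.41% and 24.5% of all genes. DESeq2 called 0 markers at 6h and 1, CXCR2, at 12h, where it called 428 and 2560 genes in all. The median log2 fold change of the 8 was -0.82 at 6h and -0.76 at 12h, beside -0.02 and -0.05 over all genes. The share of all genes below 0 was not counted. In PD the medians also differed with exon length. The genes with the shortest exon length had medians of -0.37 at 6h and -0.097 at 12h, and those with the longest 0.25 and 0.007. The calgranulins, CXCR4 and TREM1 are short, at 362 to 1062 exonic bases. The part of exon length in the medians of the 8 was not tested.

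CXCR2 had the lowest adjusted p in PD as well. It was 15.8, 35.8, 20.9 and 24.6 CPM at 0h in pigs 2, 3, 4 and 5, 20.7, 8.69, 18.4 and 11.5 CPM at 6h, and 8.42, 8.76, 11.03 and 9.68 CPM at 12h. Every library at 12h lay below every library at 0h, and at 12h the 4 pigs were close to each other. The share of all genes separated in this way was not counted. The log2 fold change was -0.72 ± 0.41 at 6h (adjusted p = 0.601) and -1.37 ± 0.41 at 12h (adjusted p = 0.0687). The 12h change passed both thresholds without the replicate block (-1.36, adjusted p = 0.0305) and in 1 fit of all 27 libraries (-1.36, adjusted p = 0.0108). It also passed with DESeq2 (-1.33, adjusted p = 0.0145) and without pig 2 (-1.503, adjusted p = 0.0228). Those fits called 1460, 3300, 2560 and 3826 genes, in the same order, against 930 in the main fit. The change of CXCR2 at 12h did not pass without pig 3, 4 or 5 (-1.09, -1.48 and -1.37, adjusted p = 0.358, 0.13 and 0.366), fits that called 0, 399 and 0 genes. Nor did it pass with the exon length trend described below removed (-1.31, adjusted p = 0.0711). It also did not pass with DESeq2's size factors in edgeR, with no filter on low counts or with only the compared times (-1.33, -1.33 and -1.31, adjusted p = 0.077, 0.0937 and 0.156). Reads of CXCR1, a close relative that was not matched to a row, may be shared with CXCR2.

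The calgranulins of PD divided by pig. S100A8 was 130, 78.5, 242 and 73.1 CPM at 0h in pigs 2, 3, 4 and 5, 179.5, 28.6, 45.4 and 19.6 CPM at 6h, and 368, 43.9, 85.5 and 27.7 CPM at 12h. S100A12 was 560, 530, 961 and 500.0 CPM at 0h, 904, 250, 257 and 175 CPM at 6h, and 1121, 252, 426 and 197 CPM at 12h. Pigs 3, 4 and 5 were lower at both times for both genes and pig 2 was higher at both.

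S100A9 was 149, 146, 386 and 199 CPM at 0h, 110, 109, 87.4 and 62.8 CPM at 6h, and 720, 110, 131 and 72.6 CPM at 12h. It was lower in all 4 pigs at 6h, with no overlap between 0h and 6h, a separation whose share over all genes was not counted. At 12h pig 2 alone was higher, 4.82 times its 0h level. At 6h the log2 fold changes were -1.52 ± 0.49 for S100A8, -1.32 ± 0.60 for S100A9 and -1.07 ± 0.45 for S100A12, with adjusted p of 0.345, 0.531 and 0.491. At 12h they were -0.73 ± 0.49, -0.31 ± 0.64 and -0.78 ± 0.44, with adjusted p of 0.391, 0.807 and 0.307.

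Leaving out pig 2 changed how many markers passed. Without it, S100A8 was called lower at 6h (-1.95, adjusted p = 0.0265), where 0.0509% of all genes were called lower. With the exon length trend described below also removed, S100A8 at 6h was at -1.56 (adjusted p = 0.0659) and was not called. Without pig 2 and with the trend kept, the other calgranulins, CXCR2 and CXCR4 were not called at 6h. S100A9 was at -1.46, S100A12 at -1.51, CXCR2 at -1.13 and CXCR4 at -0.36 (adjusted p = 0.0875, 0.0542, 0.15 and 0.624). Other pigs also moved single values that were not called: CXCR2 at 6h was -0.30 without pig 3, S100A8 at 12h was -0.36 without pig 4 and TREM1 at 12h was -0.47 without pig 5. At 12h without pig 2, 5 of the 8 markers were called lower, where 12.6% of all genes were called lower. These were S100A8 (-1.29), S100A9 (-1.24), S100A12 (-1.23), CXCR2 (-1.503) and TREM1 (-1.68), with adjusted p from 0.0185 to 0.0366. The calgranulins and TREM1 are short transcripts, of 362 to 1041 exonic bases in RefSeq, and in PD the level of short genes against long ones varied between libraries. With each library's trend over exon length removed as well, 1 of the 5, CXCR2, stayed called at 12h (-1.55, adjusted p = 0.0189), where 11.5% of genes were called lower, and the calgranulins were at -0.91, -0.85 and -0.86 (adjusted p = 0.055, 0.0922 and 0.0584) and TREM1 at -1.31 (adjusted p = 0.07). With pig 2 kept and the trend removed, the calgranulins at 6h were at -1.26, -1.02 and -0.86 and none was called (adjusted p of 0.24 or more).

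**Figure D2:**
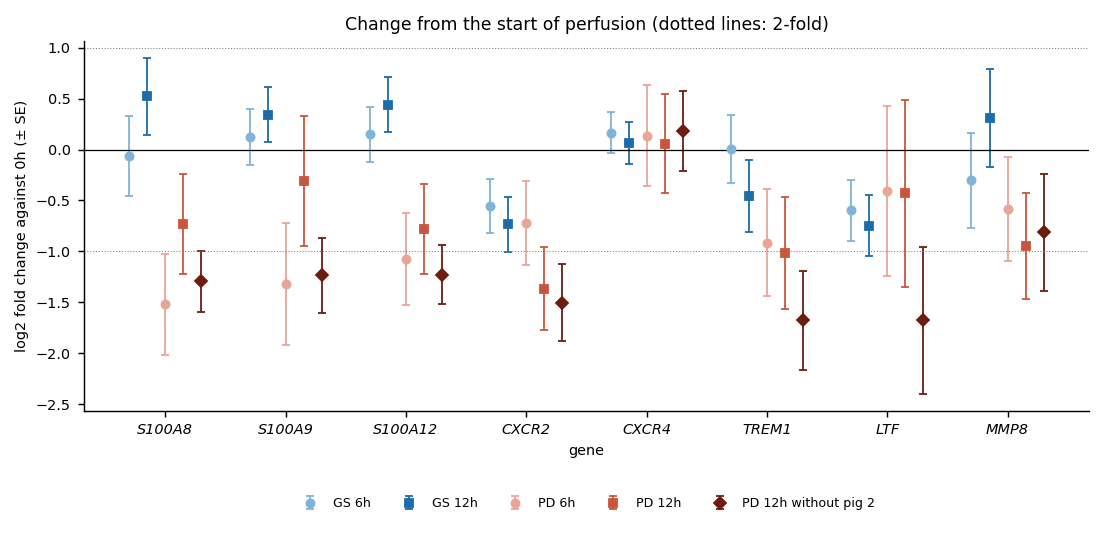
Log2 fold change of each marker against 0h with its standard error, for GS (blue) and PD (red) at 6h and 12h and for PD at 12h without pig 2 (dark diamonds). Dotted lines mark a 2-fold change. CXCR2 lies below 0 in every series, from -0.55 to -1.503, and CXCR4 lies between 0.06 and 0.18.

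TREM1 in PD was 4.204, 7.85, 4.70 and 4.41 CPM at 0h and 6.91, 3.63, 2.14 and 0.637 CPM at 12h, lower in 3 of 4 pigs and higher in pig 2 (log2 fold change -1.01 ± 0.55, adjusted p = 0.284). CXCR4 was 194, 364, 196 and 131 CPM at 0h and 120, 204, 347 and 231 CPM at 12h, lower in pigs 2 and 3 and higher in pigs 4 and 5 (0.06 ± 0.49). LTF was 0.328, 1.74, 0.918 and 1.11 CPM at 0h and 2.05, 0.866, 0.345 and 0.0637 CPM at 12h, the last of these on 1 count, lower in pigs 3, 4 and 5 and higher in pig 2. Its log2 fold change was -0.43 ± 0.92 (adjusted p = 0.814), and without pig 2 it was -1.68 (adjusted p = 0.108). MMP8 was lower at 12h in all 4 pigs, from 0.803 to 1.74 CPM at 0h to 0.324 to 0.866 CPM, on 3 to 16 counts a library at 12h, with a log2 fold change of -0.95 ± 0.52 (adjusted p = 0.29).

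Between 6h and 12h no marker was called in GS or in PD, and 0% of all genes were called in either group by edgeR. No marker had an unadjusted p under 0.05 in either, and DESeq2 called none of the markers. The largest difference was that of S100A9 in PD (log2 fold change 1.01 ± 0.62, adjusted p = 0.625), in which pig 2 went from 110 to 720 CPM. Without pig 2 it was 0.23 (adjusted p = 0.77).

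The third comparison asked whether the change over time differed between PD and GS, as the interaction of group and time over all 27 libraries. None of the markers was called and 0% of 17884 genes were called for either the 6h or the 12h change. At an unadjusted p under 0.05 there were 3 markers at 6h and 1 at 12h, beside 5.85% and 5.98% of all genes, and DESeq2 called no marker. At 6h the PD change was lower than the GS change by log2 values of -1.46 ± 0.64 for S100A8, -1.44 ± 0.64 for S100A9 and -1.23 ± 0.51 for S100A12, each with an adjusted p of 0.783. The same difference had a median of -0.36 in the shortest 10% of genes, where the calgranulins lie, and of 0.36 in the longest 10%, and its part in these values was not tested. At 12h the values were -1.28 ± 0.63, -0.67 ± 0.66 and -1.24 ± 0.50, with adjusted p of 0.838, 0.931 and 0.774. Without PD pig 2 the 3 values at 6h were -1.90, -1.58 and -1.67 (adjusted p = 0.0923, 0.0884 and 0.0518), and at 12h they were -1.82, -1.57 and -1.67 (adjusted p = 0.0718, 0.067 and 0.0529), again not called. For CXCR2 the groups differed by -0.19 ± 0.48 at 6h and -0.67 ± 0.48 at 12h, and for CXCR4 by -0.05 ± 0.52 and -0.03 ± 0.51. Without PD pig 2 these were -0.59 and -0.78 for CXCR2 and -0.54 and 0.10 for CXCR4, none called.

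Before perfusion, when no lung had met either circuit, the groups already differed. At 0h, 4 of the 8 markers were higher in PD (edgeR, adjusted p under 0.05, no fold threshold), where 40.6% of 16477 genes were called and 21.3% were called higher in PD. The differences were 9.63-fold for S100A8 (log2 3.27 ± 0.50, adjusted p = 0.000382), 4.89-fold for S100A12 (2.29 ± 0.42, adjusted p = 0.0012), 2.92-fold for CXCR4 (1.55 ± 0.30, adjusted p = 0.00164) and 2.80-fold for S100A9 (1.49 ± 0.39, adjusted p = 0.00921). For S100A8, S100A12 and CXCR4 every PD library lay above every GS library, as for 16.3% of all genes, and S100A9 overlapped through GS pig 9. The other 4 were not called: CXCR2 (-0.70 ± 0.33, adjusted p = 0.111), TREM1 (-0.38 ± 0.54), LTF (-0.87 ± 0.63) and MMP8 (-0.13 ± 0.64). Without PD pig 3, CXCR2 was called lower in PD (-0.95, adjusted p = 0.0496). With all pigs kept, 3180 of the 16477 genes were called lower in PD.

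The 4 markers that differed at 0h have short transcripts, and the difference between the groups followed exon length across the genome. Among the 13346 tested genes with a RefSeq length (81%), the shortest 10% had a median log2 difference of 1.12, with 58.5% called higher in PD, and the longest 10% a median of -0.50, with 8.01% called higher. S100A8 (386 bases), S100A12 (362), S100A9 (770) and CXCR4 (1062) were all among the shortest 10%, as did TREM1 (1041), which was not higher. With the trend removed, S100A8 remained called (1.53 ± 0.47, adjusted p = 0.0215), where 21.6% of genes were called higher, and S100A12 (0.54, adjusted p = 0.318), CXCR4 (0.64, adjusted p = 0.124) and S100A9 (0.26, adjusted p = 0.614) did not. TREM1 was then at -1.28 (adjusted p = 0.0782) and CXCR2 at -0.37 (adjusted p = 0.39), neither called. RNA was extracted with 1 of 2 kits, PicoPure or Trizol with NucleoSpin, and which library had which is not given in the sources used here. Whether the kit differed between the groups is thus not known, and its part was not tested. Depth and group cannot be told apart.

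**Figure D3:**
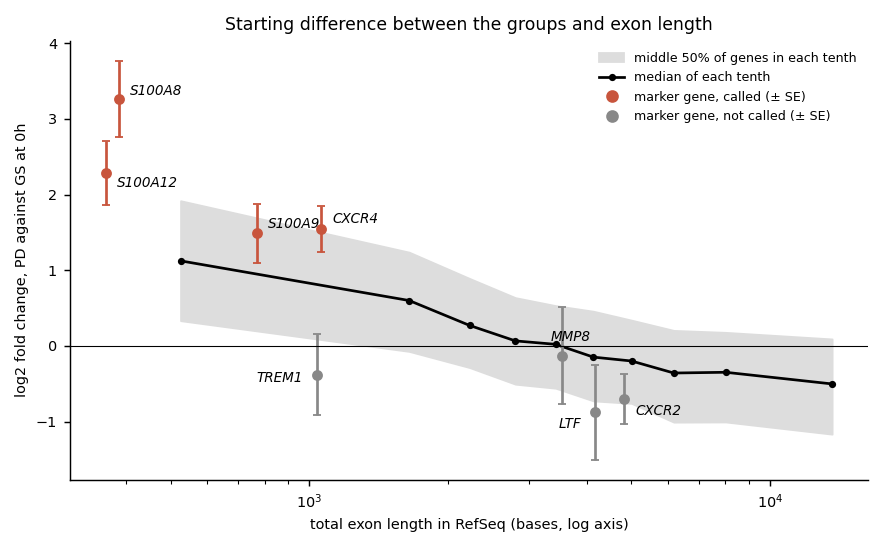
Log2 fold change of PD against GS at 0h over total exon length in RefSeq (log axis). The line and band are the median and middle 50% of genes in each of 10 bins of length, and points are markers with their standard error, red where called. S100A8 and S100A12 lie to the left of the band and higher than it. S100A9 lies in its upper part, CXCR4 at its upper edge and TREM1 below it.

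Other genes of blood and lung give the setting of these values. At 0h the list of neutrophil genes other than the markers (21 in the table) summed to 651 to 822 CPM in PD and to 816 to 1458 CPM in GS, with 2 of 19 tested members called higher in PD (PGLYRP1 and ALOX5AP) and 5 lower (LTB4R and CSF3R the most, at -1.73 and -1.37), and a median of -0.50 beside 0.00 over all genes, of which 21.3% were called higher and 40.6% in either direction. The lung tissue list summed to 28500 to 79650 CPM in PD and to 8366 to 11600 CPM in GS, with 3 of 10 members called higher, among them SFTPC, a surfactant protein of the alveolar epithelium (3.56), and HOPX (2.04), and 3 lower, CDH5 of endothelium the most (-1.69), again beside 40.6% of all genes called. Of 5 tested genes of red cells and platelets, HBB, the beta globin of red cells, was called higher in PD (4.96) and the platelet genes ITGA2B and GP9 were called lower (-1.59 and -1.55), 3 of 5 called beside the same 40.6%. Of 8 tested airway secretory genes, 3 were called higher and 0 lower, with a median of 1.46. The airway list summed to 1117 to 3834 CPM in PD and 335 to 1327 CPM in GS. Of 13 ligands and partners of the markers, 6 were called higher and 0 lower (median 0.72), beside 21.3% of all genes called higher. Of 14 lymphocyte genes, 2 were called higher and 3 lower, and of 11 monocyte genes 1 and 1. Among 10 resident macrophage genes, 0 were higher and 2 lower. The part of these in the marker differences was not tested. The shares over all genes take no account of exon length, which the 0h difference followed. Of the shortest 10% of genes, 58.5% were called higher in PD, and of the longest 10%, 34.8% were called lower. The part of exon length in the values of these lists was not tested. Among listed genes that define these blood cells, the row of LYZ, the lysozyme of monocytes and neutrophils, held 0 counts in every library, and whether that row collects the gene's reads was not tested. MPO, made in neutrophil precursors, held at most 37 counts.

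Over time in GS, of the 20 other neutrophil genes tested, 2 were called lower at 6h and 2 lower and 1 higher at 12h, beside 11.1% and 15.7% of all genes called. PADI4, the enzyme of chromatin citrullination in neutrophils, was called lower at 6h (-2.14) and again at 12h (-2.55), and AQP9, a channel for water and glycerol, was called higher at 12h (1.504). The list's median log2 fold change in GS was -0.12 at 6h and -0.10 at 12h. In PD, 1 of 17 tested was called at 12h, the complement receptor C5AR1 (-1.80), beside 5.98% of all genes, and none at 6h, with medians of -0.29 and -0.38 beside -0.02 and -0.05 over all genes.

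Monocyte genes were called in both directions in GS. CX3CR1, the fractalkine receptor of patrolling monocytes, was lower at 6h and 12h (-2.85 and -3.26), as was CCR2, the receptor of classical monocytes (-1.12 and -1.39), whereas CD14 (1.28 and 1.596) and THBS1 (1.31 and 1.18) were higher. These were 4 of 11 members tested, beside 11.1% and 15.7% of all genes called. In PD, CX3CR1 was called lower at 12h (-3.39), 1 of 11, beside 5.98% of all genes. The list's summed level was 1750 to 3324 CPM at 0h and 3657 to 6088 CPM at 12h in GS, most of it from THBS1, which is also made by platelets and stromal cells. The 10 genes of resident macrophages gave no call against 0h in either group, with medians between -0.18 and -0.02.

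Of 13 tested ligands and partners of the markers, 1 was called in GS at each time and 2 in PD at 12h, beside 11.1%, 15.7% and 5.98% of all genes. TIMP1, the inhibitor of the collagenases to which MMP8 belongs, was called higher in GS at 6h and 12h (2.01 and 2.20) and in PD at 12h (2.63), where ACKR3, the second receptor of CXCL12, was also higher (1.33). The chemokines of CXCR2 were not called over time in either group. CXCL8 had log2 fold changes of 0.09 and 0.51 in GS and 2.01 and 0.76 in PD at 6h and 12h. In PD, CXCL2 was at 1.99 and 1.56, whereas PPBP was at -1.07 and -0.60. The edgeR adjusted p of these chemokines in PD ranged from 0.211 to 0.6445. CXCL12 was at -0.30 at both times in GS. Of 14 lymphocyte genes, 1 was called in GS at 6h, 2 in GS at 12h and 2 in PD at 12h, beside the same shares of all genes. MS4A1, the CD20 of B cells, was called lower in GS at 6h and 12h (-1.29 and -1.62) and in PD at 12h (-2.39), with CD2 lower in GS (-1.20) and CD3D lower in PD (-1.58) at 12h. HBB, 1 of 6 tested genes of red cells and platelets, was called lower in GS at 6h and 12h (-1.57 and -1.5), where 11.1% and 15.7% of all genes were called. Of 8 airway genes, BPIFA1 (-3.05) and SCGB1A1 (-1.61) were called lower in GS at 12h.

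The markers fell into groups of like pattern across the 27 libraries, which is given as a description since the libraries share pigs, groups and the length trend. S100A8 and S100A12 had a Pearson correlation of log2 CPM of 0.970 over all 27, 0.857 over the 15 of GS and 0.978 over the 12 of PD, and for S100A8 and S100A9 the values were 0.855, 0.957 and 0.848. No gene was closer to S100A8 than S100A12, nor to S100A12 than S100A8, among named genes with at least 10 counts on average. S100A9 had CAPG (0.861) and SFTPD (0.856) ahead of S100A8. TREM1 and LTF correlated at 0.754 over all libraries, 0.744 in GS and 0.735 in PD, with FCN1, the ficolin of monocytes and neutrophils, nearest to TREM1 (0.759). Nearest to CXCR2 were LOC100518417 (0.883), CCDC69 (0.883) and PRKCB (0.866), to CXCR4 OSTF1 (0.940), JKAMP (0.933) and UBE2A (0.925), to LTF F12 (0.824) and to MMP8 MCOLN1 (0.686), none of them a marker.

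**Figure D4:**
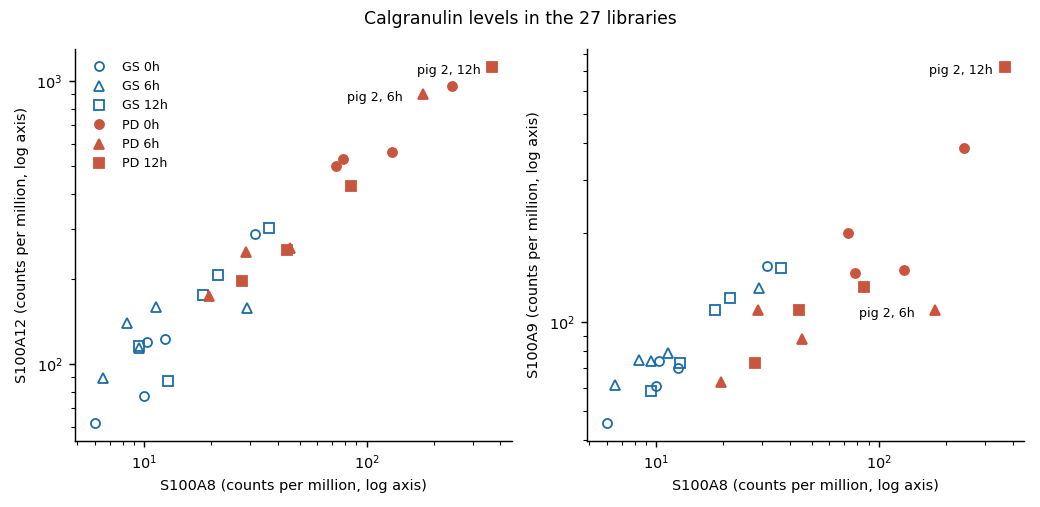
S100A12 (left) and S100A9 (right) against S100A8 in the 27 libraries, in CPM on log axes, with open symbols for GS, filled symbols for PD and the shape giving the time. S100A12 follows S100A8 along 1 line in both groups, whereas at a given S100A8 the PD libraries have less S100A9 than the GS libraries.

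The proportions of the calgranulins differed between the groups. Per kilobase of exon, the level of S100A8 was 0.212 to 0.481 times that of S100A9 in the 15 GS libraries and 0.521 to 3.25 times in the 12 PD libraries, without overlap at any time. The ratio of S100A12 to S100A9 was 2.55 to 4.34 in GS and 3.31 to 17.5 in PD, where pig 2 gave both the lowest value, at 12h, and the highest, at 6h, and the groups overlapped. S100A8 and S100A12 are shorter than S100A9, and the part of the length trend in these ratios was not tested.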

How the data were processed

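Lung biopsies of 9 pigs at 0h, 6h and 12h gave 27 libraries. The authors extracted RNA with 1 of 2 kits, made stranded mRNA libraries, sequenced them in paired-end runs and deposited raw read counts per Ensembl gene of Sscrofa11.1; the submitters' processing notes name cutadapt 1.15, TopHat2 2.0.14, featureCounts with Subread 1.6.0 and DESeq2 1.18.1. The counting options are not given in the sources used here, so that reads of near-identical or overlapping genes may be split or lost.

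The deposited counts were used as they stand, with library totals as above; precision is limited by counting in genes with few counts (LTF, MMP8). Genes passing filterByExpr were tested with edgeR 4.0.16 (limma 3.58.1, R 4.3.3), TMM scaling and a robust quasi-likelihood fit, with pig as a block within a group, as each pig gave all 3 times. Deviations of libraries of the same pig correlated at 0.513 on average in GS and 0.112 in PD. Calls needed an adjusted p under 0.05 and, against 0h, a fold change of at least 2. p-values rest on 5 and 4 animals. On simulated counts for PD 12h against 0h (15344 genes), the test recovered 24% of genes changed by 2 on the log2 scale. It recovered 0% of those changed by 1, and for GS 12h (18293 genes) the shares were 99% and 66%. A gene counted as recovered at an adjusted p under 0.05 in the right direction, with no fold threshold. The simulation had no pig effect, and its changed genes had more counts on average than LTF and MMP8 had in PD. Symbols came from the table (16719 genes), NCBI gene numbers (2802) or overlap of at least 50% with a RefSeq gene (471).

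Alternatives were DESeq2 1.42.0, other size factors, no filter, no block, all libraries in 1 fit, the compared times alone, no fold threshold, an exact Wilcoxon test of 4 against 5 pigs (too few for its p to pass adjustment unless very many genes reach the smallest value) and leaving out each pig. The exon length trend was removed with a spline per library, an alternative chosen after seeing the data; it was void in GS and over all libraries, where only 75.2% and 77.3% of genes had a length. Named genes were every marker with at least 10 counts in 1 library, of each list the called genes with the largest changes (at most 2 in each direction) or the most abundant, and the 3 genes nearest in pattern. CXCL2, CXCL8, CXCL12, PPBP, LYZ and MPO were named after their values were seen. The markers and lists were chosen with earlier results of these data known. The result of 1 listed gene is not reported here.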

Additional observations from a re-analysis of the deposited data

Results flagged for a closer look

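In PD, the log2 ratio of S100A12 at 12h to 0h was 1.001 in pig 2 and -1.34 to -1.07 in the other 3 pigs, so that pig 2 stood far from the rest. This was 1 of 80 groups of values examined in this way, of which chance would mark about 4. The same library had the lowest total count of the series and the highest level of short genes; their part in the value was not tested.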

How the results depend on the processing

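Of 1216 values for single markers under an alternative, 1149 kept their direction and their side of the threshold, 51 changed sign, 12 passed a threshold they had missed, 3 lost one and 1 moved. Depth limits the precision of LTF and MMP8, with as few as 1 and 3 counts in a library. The cause of the changes listed here was not tested.

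Without the replicate block, that is without pairing by pig, the count of called genes was 1123 in GS at 6h, 1896 in GS at 12h, 100 in PD at 6h and 1460 in PD at 12h, where 1 marker (CXCR2) was called. The log2 values then changed sign for S100A12 (-0.044) and TREM1 (-0.21) in GS at 6h, MMP8 in GS at 12h (-0.19), S100A9 in PD at 12h (0.22), LTF in PD from 6h to 12h (0.064) and LTF for the difference of the 6h changes (-0.031).

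With DESeq2, 428 genes were called in PD at 6h, 2560 in PD at 12h with 1 marker, 224 in PD and 2 in GS between 6h and 12h, and 7 and 15 for the difference of the 6h and 12h changes. With all 27 libraries in 1 fit, the counts were 1219 in GS at 6h, 479 in PD at 6h, 3300 in PD at 12h with 1 marker and 492 in PD between 6h and 12h. With no fold threshold, 5295 and 7136 genes were called in GS at 6h and 12h, 1 of them a marker at 12h. PD at 6h gave 103 genes with no filter on low counts and 139 with only the compared times, and PD at 12h gave 4 with only the compared times. LTF in PD between 6h and 12h was at 0.0044 with DESeq2 and 0.0099 with its size factors, and LTF for the difference of the 12h changes was at -0.076 with the exact Wilcoxon test.

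With the exon length trend removed, chosen after seeing the data, PD at 6h gave 54 genes, 1 marker was called at 0h, and MMP8 at 0h (0.041) and LTF in PD between 6h and 12h (0.17) changed sign. Removed without PD pig 2, it gave 88 genes in PD at 6h, with CXCR4 at -0.0045, and 3124 in PD at 12h with 1 marker.

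Leaving out 1 pig at a time, the counts ranged from 1318 to 2148 in GS at 6h, 0 to 98 in PD at 6h (0 to 1 markers), 0 to 3826 in PD at 12h (0 to 5 markers), and 0 to 254 and 0 to 153 for the differences of the 6h and 12h changes, with the highest values for PD and for the differences in the fits without PD pig 2. The log2 values that changed sign ranged, in GS at 6h, from -0.56 to 0.31 for S100A8, -0.16 to 0.42 for S100A9, -0.12 to 0.43 for S100A12 and -0.18 to 0.21 for TREM1. In GS at 12h they ranged from -0.11 to 0.17 for CXCR4 and -0.051 to 0.73 for MMP8, and between 6h and 12h from -0.35 to 0.060 for CXCR2, -0.34 to 0.032 for LTF and -0.26 to 0.11 for CXCR4. In PD, CXCR4 at 6h ranged from -0.36 to 0.65, and at 12h S100A9 from -1.24 to 0.26, CXCR4 from -0.22 to 0.43 and LTF from -1.68 to 0.17. In PD between 6h and 12h the ranges were -0.34 to 0.53 for CXCR4, -0.64 to 0.22 for TREM1 and -1.25 to 0.87 for LTF. For the difference of the 6h changes they were -0.11 to 0.38 for LTF, -0.54 to 0.48 for CXCR4, -0.54 to 0.011 for MMP8 and -0.59 to 0.25 for CXCR2, and of the 12h changes -0.32 to 0.39 for CXCR4 and -0.91 to 0.90 for LTF. At 0h they were -0.63 to 0.26 for TREM1 and -0.38 to 0.77 for MMP8.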
